A study of Mus musculus with 27 samples.

Results

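Dbp, Tef, Hlf, Nfil3, Bhlhe40, Bhlhe41, Ciart and Rora are transcription factors that carry the rhythm of the circadian clock to other genes or act back on its loops. These 8 genes were taken by name from the 54532 genes of a mouse RNA-seq table, and their levels were followed in 27 libraries made while mouse embryonic fibroblasts (MEFs) were turned into induced neurons (iNs). The MEFs, which were WT, Per1-/- or Per2-/-, were transduced with lentiviruses carrying the BAM genes, neuronal transcription factors whose expression is switched on by doxycycline. Each genotype was sampled on days 0, 2 and 4, with 3 replicates in each of the 9 groups. All cultures, WT included, received the viruses, and day 0 was taken before the medium was changed to a serum-free one with doxycycline, so time, medium and doxycycline cannot be told apart in any comparison with day 0. The MEFs came from several embryos pooled in a dish, and the hour of harvest and any synchronisation of the clock in these cultures are not given in the sources used here. Each level is an average over the cells of a culture at an unknown clock phase.

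DBP, TEF and HLF are PAR bZIP activators that bind D-box elements in clock-controlled genes, and NFIL3 (E4BP4) is a bZIP repressor that binds the same elements. BHLHE40 (DEC1) and BHLHE41 (DEC2) are basic helix-loop-helix repressors that bind E-boxes, where the CLOCK/BMAL1 complex acts, and CIART (CHRONO) is a repressor of CLOCK/BMAL1. RORA is a nuclear receptor that activates Arntl, the gene of BMAL1, through ROR elements, in competition with the REV-ERB repressors. Several of these genes also have roles outside the clock: NFIL3 and BHLHE40 respond to growth factors and cytokines, BHLHE41 is expressed in some tissue macrophages and RORA in neurons.

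The promoters are shown because 3 of the genes have, upstream of a start site, the E-box letters CACGTG through which the clock itself can drive them. RefSeq promoter windows (GRCm38.p6) were found for 7 of the 8 genes, 8 windows in all, and the 250 bases before each start were searched on both strands. The perfect E-box was found in 4 of these windows and in 6.02% of all 32851 promoter windows. The stretches below are printed 5′ to 3′ on the strand of the gene, with the E-boxes in capitals. They are the Ciart promoter (chr3:95882259-95882353, minus strand), the Bhlhe41 promoter (chr6:145865559-145865618, minus strand) and the promoter of the downstream start of Tef (chr15:81811246-81811305, plus strand), and none of the E-boxes shown lies in an annotated exon.
Ciart: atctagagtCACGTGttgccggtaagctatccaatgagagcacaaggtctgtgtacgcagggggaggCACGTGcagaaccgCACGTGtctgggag
Bhlhe41: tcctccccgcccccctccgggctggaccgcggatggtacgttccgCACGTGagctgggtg
Tef: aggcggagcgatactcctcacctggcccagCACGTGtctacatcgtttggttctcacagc
The 3 E-boxes of Ciart started 116, 58 and 44 bases before the start site. The E-box of Bhlhe41 started 153 bases and that of the downstream Tef start 138 bases before it, and the upstream Tef window held another at 127 bases, inside an annotated exon of Tef. The D-box letters TTATGTAA or TTACGTAA were in none of the 8 windows and in 0.931% of all windows. The ROR element TAGGTCA was in the Nfil3 window alone of the 8, on the opposite strand and within an annotated exon of the gene, and in 2.23% of all windows. These matches are of letters only. Ciart, Bhlhe41 and Tef, which share the E-box, did not move alike over the days of reprogramming, as their values below show. The part of the E-boxes in their levels was not tested, and nothing on it is drawn from these courses.

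The genotype labels were first checked on the targeted transcripts. Per1 was at 4.96, 3.23 and 4.15 FPKM (sequenced fragments scaled by exon length and by library size) in the Per1-/- libraries of day 0 and at 6.33, 5.58 and 5.44 FPKM in the WT ones. Neither this difference nor those of days 2 and 4 passed the test (log2 differences of -0.50, -0.19 and -0.21). Per2 was higher, not lower, in the libraries labelled Per2-/-. Its levels on day 0 were 1.87, 2.00 and 1.90 FPKM there against 0.906, 0.957 and 0.817 FPKM in WT, a log2 difference of 1.03 (SE 0.127, limma, adjusted p = 0.00114). The difference was 0.82 on day 2 (adjusted p = 0.0191) and 0.68 on day 4 (adjusted p = 0.223). With WT and that label fitted alone neither call held (adjusted p = 0.712 on day 0 and 0.423 on day 2), and on day 2 it was also lost without WT replicate 1 or 3 (log2 0.81 and 0.73) and without replicate 1, 2 or 3 of the label (log2 0.83, 0.78 and 0.83). Which exons the alleles lack is not given in the sources used here, so a transcript level checks neither label. By western blotting, which is not analysed here, the study reported that PER1 protein was lost in Per1-/- MEFs and PER2 protein in Per2-/- MEFs. The groups are called Per1-/- and labelled Per2-/- below, and no direction is drawn from the second label.

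The cultures were mixtures. The summed level of 11 fibroblast markers was 3708 to 6470 FPKM over the 27 libraries, and that of 14 neuron markers was 47.8 to 107 FPKM on day 0 and 131 to 231 FPKM on day 4. Rbfox3 and Elavl3 were at 0 in all 3 WT libraries of day 0, Rbfox3 in all 3 Per1-/- ones and Syp in all 3 labelled Per2-/-. The sum of 14 macrophage markers was 60.9 to 591 FPKM on day 0 and 320 to 1232 FPKM on day 4. That of 8 skeletal muscle markers was 79.3 to 409 FPKM on day 0, 14.8 to 30.3 FPKM on day 2 and 26.2 to 53.0 FPKM on day 4. The neuron, fibroblast and muscle markers did not move alike. In WT, 8 neuron markers were called higher on day 2 than on day 0 by the test described below, and Stmn2 was called lower. Gap43, the neuron marker with the highest mean in WT on day 0, went from 33.0 to 15.2 FPKM without a call. Of the fibroblast markers 5 were called higher in WT and 3 lower. From day 0 to day 2 Acta1 and Des fell in each genotype, whereas Tnnt1 rose in each and Myod1 and Myh3 rose in WT. In such bulk samples a lower share of one cell type and less RNA per cell cannot be told apart, and the part of the mixture in the day differences below was not tested. Libraries held 15815013 to 24264097 fragments assigned to genes.

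Nfil3 and Bhlhe40 were the most abundant of the 8 genes before reprogramming, and Tef was the most abundant afterwards. On the FPKM scale, which is per length, the mean level over the 9 libraries of day 0 was 19.2 for Nfil3, 16.3 for Bhlhe40, 8.41 for Tef, 3.67 for Dbp, 2.55 for Bhlhe41, 1.37 for Ciart, 1.35 for Rora and 0.432 for Hlf. The ranges of Nfil3 and Bhlhe40 overlapped, as did those of each neighbouring pair from Dbp to Rora, whereas Tef and Hlf lay apart from their neighbours in this order. On day 4 the mean level was 16.3 for Tef, 8.30 for Nfil3, 5.41 for Dbp, 3.76 for Rora, 2.44 for Bhlhe40, 2.32 for Bhlhe41, 1.04 for Ciart and 0.268 for Hlf. Tef then lay above all others in each of the 9 libraries and Hlf below all others, while each neighbouring pair from Nfil3 to Ciart overlapped.

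**Figure D1:**
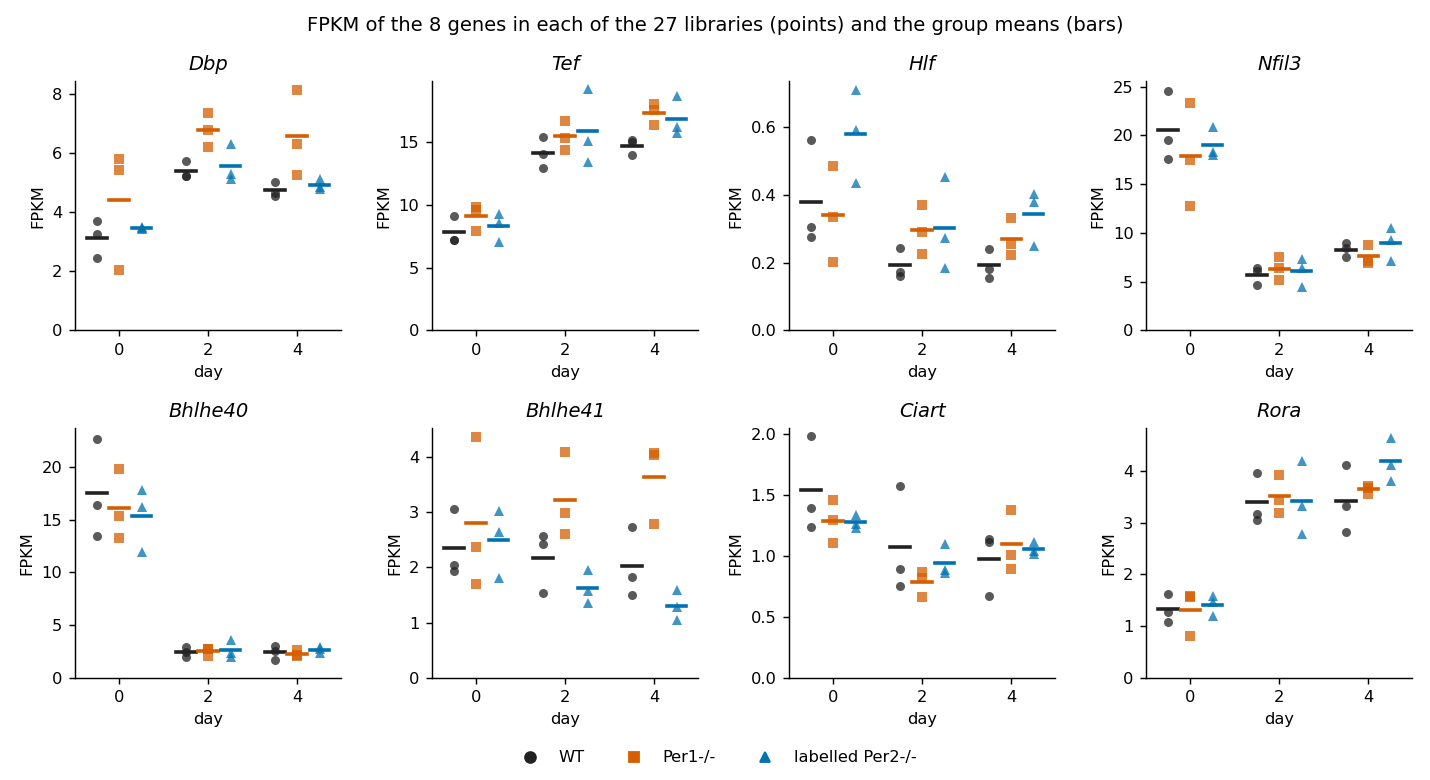
FPKM of each of the 8 genes (vertical axes, each with its own scale from 0) on days 0, 2 and 4, with 1 point for each library and a bar for the mean of each group of 3. Tef, Dbp and Rora sit higher on days 2 and 4 than on day 0, Nfil3 and Bhlhe40 sit lower, and Bhlhe41 spreads by genotype on day 4.

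The first question was how the genes changed over reprogramming within each genotype. Between days 0 and 2 the activators Tef, Dbp and Rora rose and the repressors Nfil3 and Bhlhe40 fell in all 3 genotypes, and Ciart fell in Per1-/-. Not all activators and repressors moved so. The mean of the activator Hlf was lower on day 2 in each genotype. The mean of the repressor Bhlhe41 was higher in Per1-/- and lower in WT and in the libraries labelled Per2-/-. None of these differences of Hlf and Bhlhe41 passed the test. On log2(FPKM + 0.1), a gene counted as called when its limma adjusted p did not exceed 0.05 and its log2 fold change was 0.58 or more in either direction. This scale understates the fold changes of low genes. Hlf, at a mean of 0.321 FPKM, fell under the filter of 0.5 FPKM that left 14932 genes, and the other 7 members passed it. In WT, 5 of 7 were called (3 higher, 2 lower), where 40.5% of all genes tested were called (20.8% higher, 19.7% lower). In Per1-/-, 6 of 7 were called (3 higher, 3 lower) against 39.6% of all genes (20.8% higher, 18.8% lower). In the libraries labelled Per2-/-, 5 of 7 were called (3 higher, 2 lower) against 35.5% of all genes (18.7% higher, 16.8% lower). The median log2 fold change of the 7 was -0.11 in WT, 0.28 in Per1-/- and -0.40 in the libraries labelled Per2-/-, beside medians of -0.01 over all genes in each. With so large a share of the transcriptome called, these counts do not set the genes apart. Days 0 and 2 did not overlap for 5, 6 and 6 of the 7 in WT, Per1-/- and the libraries labelled Per2-/-, and for 67.2%, 60.5% and 61.5% of all genes. Days 2 and 4 did not for 2, 1 and 1 of the 7, and for 32.1%, 29.7% and 28.8% of all genes. For days 0 and 4 it was 6, 4 and 7 of the 7, and 68.6%, 62.6% and 63.8% of all genes.

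Of these calls, only that of Ciart was lost on another scale. The deposited FPKM had equal median-ratio size factors in all 27 libraries, so each comparison is centred on the median gene. When every library was brought to the same sum of FPKM, the median log2 change of all genes from day 0 to day 2 became 0.41 in WT, 0.38 in Per1-/- and 0.31 in the libraries labelled Per2-/-. The share of calls that were higher moved from 51.3% to 81.6%, from 52.5% to 81.8% and from 52.7% to 78.5% in the same order. From day 0 to day 4 it moved from 52.2% to 78.4%, from 52.6% to 72% and from 53.5% to 71.7%, and from day 2 to day 4 in Per1-/- from 56.6% to 29.2% and in the libraries labelled Per2-/- from 57.1% to 40%. The calls of Tef, Dbp, Rora, Nfil3 and Bhlhe40 from day 0 to day 2 all held with the same sign, and the changes below are relative to the median gene.

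Among the D-box activators, Tef (ENSMUSG00000022389, chr15:81802421-81826863, plus strand, GRCm38) was the best measured. In WT it was at 7.23, 9.10 and 7.17 FPKM on day 0, at 12.9, 14.0 and 15.4 FPKM on day 2 and at 13.9, 15.0 and 15.1 FPKM on day 4. In Per1-/- it was at 9.60, 7.90 and 9.80 FPKM, then at 16.7, 15.3 and 14.4 FPKM and then at 17.6, 18.0 and 16.3 FPKM. In the libraries labelled Per2-/- it was at 8.59, 7.04 and 9.24 FPKM, then at 13.4, 19.2 and 15.1 FPKM and then at 16.2, 18.7 and 15.7 FPKM. Every library of days 2 and 4 was above every library of day 0. From day 0 to day 2 Tef rose 1.80-fold in WT (log2 0.85, SE 0.127, limma adjusted p = 8.48e-06), 1.70-fold in Per1-/- and 1.90-fold in the libraries labelled Per2-/-. Day 4 stood 1.88-, 1.90- and 2.03-fold above day 0 in the same order, and no step from day 2 to day 4 was called. These 3 steps were log2 0.06, 0.16 and 0.10.

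Dbp (ENSMUSG00000059824, chr7:45705088-45710203, plus strand), a direct E-box target of CLOCK/BMAL1 in other tissues, rose less evenly. In WT it was at 3.25, 3.70 and 2.47 FPKM on day 0, at 5.24, 5.72 and 5.23 FPKM on day 2 and at 4.56, 5.01 and 4.65 FPKM on day 4. In Per1-/- it was at 5.42, 2.04 and 5.79 FPKM, then at 7.37, 6.22 and 6.79 FPKM and then at 8.14, 5.26 and 6.31 FPKM. In the libraries labelled Per2-/- it was at 3.45, 3.44 and 3.49 FPKM, then at 5.28, 6.32 and 5.12 FPKM and then at 4.80, 5.12 and 4.85 FPKM. Day 2 did not overlap day 0 in any genotype, but replicate 2 of Per1-/- on day 0 lay far below replicates 1 and 3. In that library the fibroblast marker sum was 3769 FPKM, the lowest of the 9 libraries of day 0. That library had the highest neuron marker sum, 107 FPKM, of which Gap43 gave 59.8 FPKM and Tubb3 31.6 FPKM. It also stood apart in some skeletal muscle genes, with 9.50 FPKM of Myog, 11.6 FPKM of Myh3, 2.86 FPKM of Myod1 and 3.39 FPKM of Tnnt1, where the other 8 libraries had at most 0.994, 1.67, 0.684 and 0.676 FPKM. Myf5 and Ckm were also highest there but near the floor, at 0.343 and 0.334 FPKM. Acta1 at 138 FPKM, Des at 43.5 FPKM and the muscle marker sum of 209 FPKM lay within the range of the other libraries of day 0. The part of the cell mixture in its Dbp level was not tested. The rise to day 2 was 1.72-fold in WT (log2 0.78, SE 0.246, limma adjusted p = 0.00943), 1.67-fold in Per1-/- (adjusted p = 0.0133) and 1.59-fold in the libraries labelled Per2-/- (adjusted p = 0.0261). By day 4 it was 1.51-fold in WT and 1.60-fold in Per1-/-, both called, and log2 0.50 in the libraries labelled Per2-/-, not called (adjusted p = 0.0872), though called with equal sums of FPKM (log2 0.74, adjusted p = 0.0202). Between days 2 and 4 Dbp was lower without overlap in WT and in the libraries labelled Per2-/-, at log2 -0.18 and -0.17, not called. In these comparisons 32.1% and 28.8% of all genes did not overlap. Dbp overlaps Sphk2 on the opposite strand (737 bases), and since the libraries were nondirectional, reads there cannot be assigned to a strand.

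The Dbp calls rest on single libraries. Without replicate 2 of Per1-/- on day 0 the rise in Per1-/- was log2 0.27 by day 2 (limma adjusted p = 0.139) and 0.20 by day 4 (adjusted p = 0.261), and without replicate 1 of day 4 the latter was 0.51 (adjusted p = 0.111). Without replicate 3 of day 0 the WT rise was log2 0.62 by day 2 (adjusted p = 0.0563) and 0.44 by day 4 (adjusted p = 0.168). The WT call of day 4 was also lost without replicate 1 of day 0 (log2 0.63, adjusted p = 0.0603) and without replicate 1, 2 or 3 of day 4 (log2 0.62, 0.56 and 0.61). The day 2 call of the libraries labelled Per2-/- was lost without replicate 1, 2 or 3 of day 0 (log2 0.66, 0.66 and 0.67) and without replicate 2 of day 2 (log2 0.57). In each of these the sign stayed positive.

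Hlf (ENSMUSG00000003949, chr11:90336536-90390895, minus strand) was close to the limit of these libraries, at 20 to 89 fragments each. It was at 0.203 to 0.707 FPKM on day 0, with a median of 0.433 FPKM over the 9 libraries. On day 2 it was at 0.162 to 0.451 FPKM with a median of 0.243 FPKM, and on day 4 at 0.155 to 0.401 FPKM with a median of 0.248 FPKM. Over the 9 libraries the days overlapped. Within WT, days 2 and 4 lay below day 0 without overlap, where 67.2% and 68.6% of the genes tested did not overlap. In the libraries labelled Per2-/- day 4 lay below day 0, where 63.8% did not overlap. With no filter on low genes, the log2 changes to day 2 were -0.68 in WT, -0.12 in Per1-/- and -0.78 in the libraries labelled Per2-/-. None of them was called (limma adjusted p = 0.132, 0.970 and 0.0793, unadjusted p = 0.0432, 0.700 and 0.0210).

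Nfil3 (ENSMUSG00000056749, chr13:52967209-52981073, minus strand), the repressor that competes with these activators, moved the other way. The WT levels were 17.6, 24.6 and 19.5 FPKM on day 0, 6.40, 6.08 and 4.65 FPKM on day 2 and 8.93, 8.47 and 7.50 FPKM on day 4. The Per1-/- levels were 23.3, 17.5 and 12.8 FPKM, then 5.14, 6.37 and 7.50 FPKM and then 7.12, 8.77 and 6.96 FPKM. Those labelled Per2-/- were at 18.0, 20.8 and 18.3 FPKM, then at 7.33, 4.51 and 6.37 FPKM and then at 9.30, 7.09 and 10.6 FPKM. The lowest library of day 0 was above the highest of days 2 and 4. Nfil3 was 3.55-fold lower on day 2 than on day 0 in WT (log2 -1.83, SE 0.208, limma adjusted p = 2.19e-07), 2.74-fold lower in Per1-/- and 3.15-fold lower in the libraries labelled Per2-/-. Between days 2 and 4 the WT groups did not overlap, as for 32.1% of all genes, day 4 being higher. The log2 steps of 0.54, 0.27 and 0.57 in the 3 genotypes were not called (limma adjusted p = 0.142, 0.512 and 0.101). Day 4 was still 2.44-, 2.27- and 2.13-fold below day 0, all called.

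Set against each other within each library, the summed D-box activators and their repressor changed order. The ratio of the summed FPKM of Dbp, Tef and Hlf to that of Nfil3 was 0.523 to 1.23 on day 0, with a median of 0.610 over the 9 libraries. It was 2.58 to 5.71 on day 2 (median 3.27) and 1.98 to 3.64 on day 4 (median 2.66). Replicate 3 of Per1-/- was the only library of day 0 in which the summed activators exceeded Nfil3, and they did so in all 18 libraries of days 2 and 4. Tef was the largest part of the sum. On day 4 the mean was 16.3 FPKM for Tef, 5.41 FPKM for Dbp and 0.268 FPKM for Hlf, against 8.30 FPKM for Nfil3. This ratio is of transcripts, it is independent of the scale of a library, and no test was put on it.

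**Figure D2:**
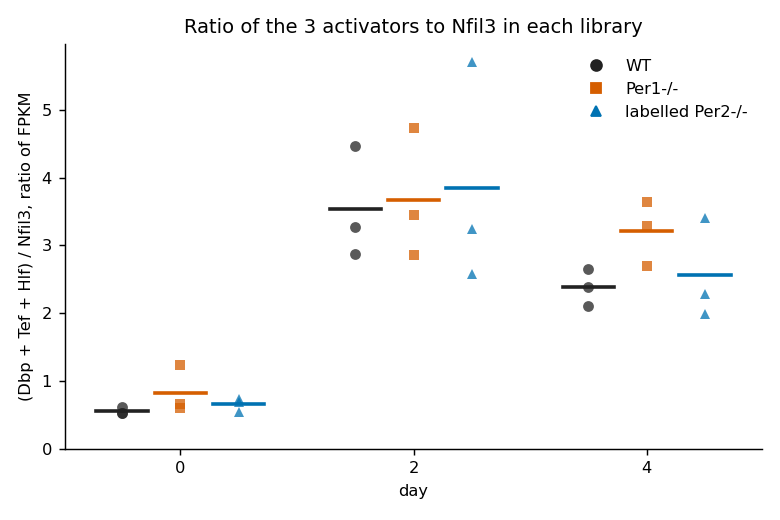
Ratio of the summed FPKM of Dbp, Tef and Hlf to the FPKM of Nfil3 (vertical axis, from 0) by day, with 1 point for each of the 27 libraries and a bar for the mean of each group of 3. The libraries of day 0 lie between 0.523 and 1.23, below all libraries of days 2 and 4.

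Bhlhe40 (ENSMUSG00000030103, chr6:108660629-108666925, plus strand) fell more than any other of the 7 genes tested, in each genotype. WT cultures had 22.7, 16.4 and 13.5 FPKM on day 0, 2.86, 2.47 and 1.98 FPKM on day 2 and 2.53, 3.03 and 1.65 FPKM on day 4. Per1-/- cultures had 13.3, 19.8 and 15.3 FPKM, then 2.08, 2.73 and 2.73 FPKM and then 2.65, 2.15 and 2.01 FPKM. Cultures labelled Per2-/- had 16.2, 12.0 and 17.8 FPKM, then 3.56, 1.93 and 2.38 FPKM and then 2.93, 2.70 and 2.35 FPKM. Day 0 stood well apart from the later days, which overlapped each other. Bhlhe40 was 6.85-fold lower on day 2 in WT (log2 -2.78, SE 0.241, limma adjusted p = 5.54e-09), 6.18-fold lower in Per1-/- and 5.76-fold lower in the libraries labelled Per2-/-. On day 4 it was 7.08-, 6.80- and 5.54-fold below day 0.

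Its paralogue Bhlhe41 (ENSMUSG00000030256, chr6:145858243-145865558, minus strand) was called in 1 of the comparisons between days. The WT levels were 3.06, 1.93 and 2.05 FPKM on day 0, 2.43, 1.53 and 2.57 FPKM on day 2 and 1.83, 1.49 and 2.74 FPKM on day 4. The Per1-/- levels were 1.69, 2.37 and 4.36 FPKM, then 2.99, 2.60 and 4.10 FPKM and then 4.08, 2.79 and 4.04 FPKM. Those labelled Per2-/- were at 2.64, 1.81 and 3.02 FPKM, then at 1.95, 1.35 and 1.57 FPKM and then at 1.29, 1.04 and 1.59 FPKM. The days overlapped in WT and Per1-/-, whereas day 4 lay below day 0 in the libraries labelled Per2-/-. That last difference was the only one called within a genotype, at log2 -0.87 (SE 0.305, limma adjusted p = 0.0183). It was lost without replicate 1 or 3 of day 0 (log2 -0.81 and -0.72), without replicate 2 of day 4 (log2 -0.73) and with equal sums of FPKM (log2 -0.63, adjusted p = 0.0891). In Per1-/- the log2 change to day 4 was 0.45 and not called, and without replicate 3 of day 0 it was 0.81 and called (adjusted p = 0.0247).

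Ciart (ENSMUSG00000038550, chr3:95878503-95882251, minus strand) was low, at 33 to 92 fragments a library, and moved little. In WT it was at 1.39, 1.24 and 1.98 FPKM on day 0, at 1.57, 0.896 and 0.751 FPKM on day 2 and at 1.14, 1.11 and 0.670 FPKM on day 4. In Per1-/- it was at 1.46, 1.29 and 1.11 FPKM, then at 0.664, 0.818 and 0.867 FPKM and then at 1.01, 0.894 and 1.38 FPKM. In the libraries labelled Per2-/- it was at 1.23, 1.34 and 1.26 FPKM, then at 1.09, 0.885 and 0.858 FPKM and then at 1.01, 1.12 and 1.04 FPKM. Day 2 lay below day 0 without overlap in Per1-/- and in the libraries labelled Per2-/-, but not in WT. The fall to day 2 was called in Per1-/- at 1.57-fold (log2 -0.65, SE 0.235, limma adjusted p = 0.0214), and the log2 changes of -0.52 in WT (adjusted p = 0.0616) and -0.40 in the libraries labelled Per2-/- were not called. By day 4 the fall was called in WT at 1.53-fold (log2 -0.62, adjusted p = 0.0266). Neither call held with equal sums of FPKM, where they were log2 -0.29 and -0.25.

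Single libraries also decided Ciart. The Per1-/- call was lost without replicate 1 of day 0 or of day 2 (log2 -0.56 and -0.55), and the WT call of day 4 without replicate 3 of day 0 or of day 4 (log2 -0.43 and -0.39). The WT change to day 2 was called without replicate 2 of day 0 (log2 -0.65) or replicate 1 of day 2 (log2 -0.81). Ciart lies wholly within the antisense gene C920021L13Rik (3749 bases of overlap), and reads of the pair cannot be told apart in nondirectional libraries.

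Rora (ENSMUSG00000032238, chr9:68653786-69388246, plus strand) rose in each genotype and stayed up. WT cultures had 1.27, 1.62 and 1.08 FPKM on day 0, 3.06, 3.18 and 3.97 FPKM on day 2 and 3.32, 2.83 and 4.12 FPKM on day 4. Per1-/- cultures had 1.58, 0.804 and 1.56 FPKM, then 3.93, 3.18 and 3.44 FPKM and then 3.72, 3.55 and 3.68 FPKM. Cultures labelled Per2-/- had 1.57, 1.47 and 1.20 FPKM, then 2.78, 4.20 and 3.32 FPKM and then 4.13, 4.64 and 3.81 FPKM. No library of day 0 reached the levels of days 2 and 4. The rise to day 2 was 2.48-fold in WT (log2 1.31, SE 0.207, limma adjusted p = 1.56e-05), 2.65-fold in Per1-/- and 2.32-fold in the libraries labelled Per2-/-. Day 4 was 2.48-, 2.75- and 2.85-fold above day 0.

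**Figure D3:**
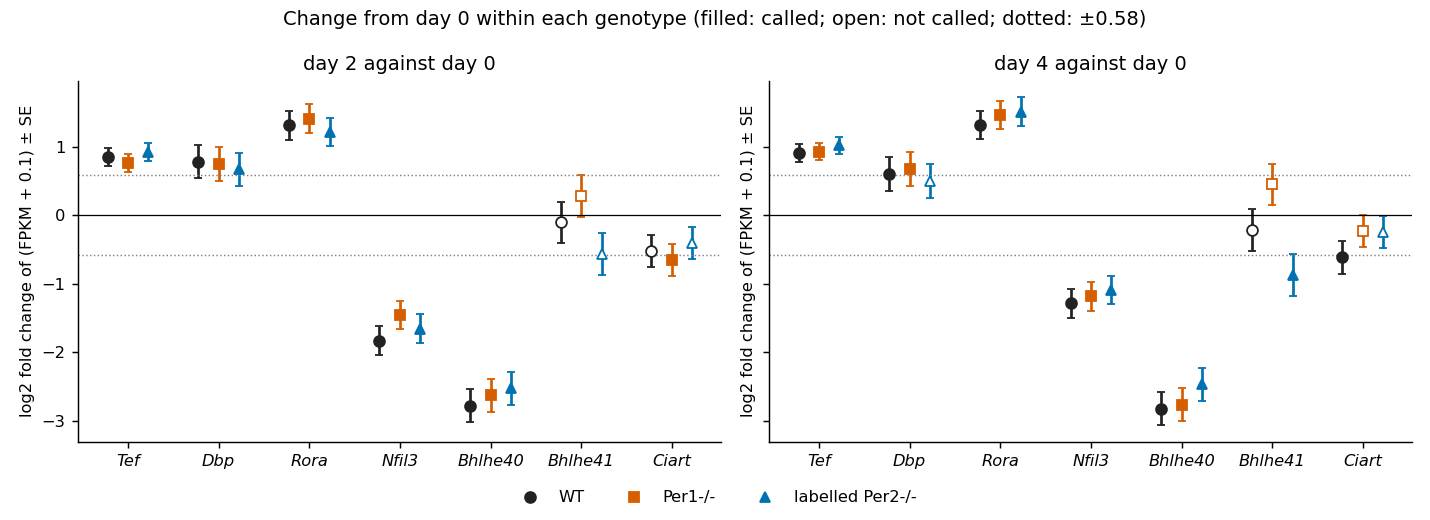
Log2 fold change of (FPKM + 0.1) from day 0 to day 2 (left) and to day 4 (right) for the 7 genes tested, with 1 symbol and its SE for each genotype, filled where called. Tef, Dbp and Rora lie above 0 and Nfil3 and Bhlhe40 below it in each genotype, and Bhlhe41 is the gene whose genotypes lie on both sides of 0.

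Over the longer interval from day 0 to day 4, which shares its day 0 libraries with the comparison above, 6 of 7 were called in WT (43.8% of all genes), 5 of 7 in Per1-/- (43% of all genes) and 5 of 7 in the libraries labelled Per2-/- (40.3% of all genes). In WT 3 were higher and 3 lower, in Per1-/- 3 and 2, and in the libraries labelled Per2-/- 2 and 3. Between days 2 and 4 limma called none of the 7 in any genotype, where it called 3.21% of all genes in WT, 2.44% in Per1-/- and 4.06% in the libraries labelled Per2-/-. The counts at an unadjusted p under 0.05 were 1, 0 and 1, and voom weights on the recovered fragments also gave 0 calls. With a replicate block, which the numbering allows for the WT and Per1-/- steps between these days, 829 and 730 of all genes were called against 479 and 364 without it, and still none of the 7. The 2 unadjusted ones were both Nfil3, higher on day 4. Ciart in WT and Bhlhe41 in the libraries labelled Per2-/- were called on day 4 against day 0 but not on day 2 against day 0, and their step between days 2 and 4 was not called.

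The second question was whether the loss of Per1 or Per2 altered these genes. In Per1-/- against WT none of the 7 was called by limma on day 0, 2 or 4, where 0.0134%, 0.0067% and 0.0268% of all genes were called. The counts at an unadjusted p under 0.05 were 0, 0 and 1. In the libraries labelled Per2-/- against WT none of the 7 was called on any day, where 0.0067%, 0.0268% and 0.0067% of all genes were called, and none had an unadjusted p under 0.05. Voom also called none in either set. Few genes of any kind were called here, so these tests say little of small differences. With another test at the same thresholds, the study reported many more genes between Per1-/- and WT cells, macrophage genes among them. The lack of calls in the present fit is therefore no evidence that the genotypes were alike. The 95% intervals of the log2 difference from WT on day 4 were -0.03 to 0.50 for Tef, -0.56 to 0.31 for Nfil3, -0.55 to 0.45 for Bhlhe40 and -0.33 to 0.54 for Rora in Per1-/-. In the libraries labelled Per2-/- they were -0.07 to 0.46, -0.34 to 0.53, -0.32 to 0.68 and -0.14 to 0.73.

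Dbp lay higher in Per1-/- than in WT on days 2 and 4 with no overlap of the libraries, at 6.79 ± 0.575 FPKM (SD, n = 3) against 5.40 ± 0.283 FPKM on day 2 and at 6.57 ± 1.46 FPKM against 4.74 ± 0.241 FPKM on day 4. The log2 differences of 0.32 and 0.44 (SE 0.246) were not called, with 95% intervals of -0.19 to 0.84 and -0.07 to 0.95. Tef on day 4, at 17.3 ± 0.877 FPKM in Per1-/- and 14.7 ± 0.648 FPKM in WT, was likewise apart without a call (log2 0.23). Such separation was seen for 0 of the 7 members on day 0, 2 on day 2 and 3 on day 4, the others being Bhlhe41 on both days, and for 5.11%, 10.3% and 14.6% of all genes. Tef alone was apart between the libraries labelled Per2-/- and WT, on day 4, where 10.2% of all genes were.

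The change over time was then compared between genotypes by interaction contrasts. Limma called no member in any of the 4 contrasts. For Per1-/- against WT 0% of all genes were called for the change from day 0 to day 2 and 0% for that from day 2 to day 4, and for the libraries labelled Per2-/- 0% and 0.0067%. No member had an unadjusted p under 0.05 in any of them, and voom called none. From day 0 to day 2 the log2 change of Tef in Per1-/- differed from that of WT by -0.08 (95% interval -0.46 to 0.29), that of Nfil3 by 0.37 (-0.24 to 0.98), that of Bhlhe40 by 0.15 (-0.56 to 0.86) and that of Rora by 0.10 (-0.51 to 0.71). Differences as large as the fold threshold lie within some of these intervals.

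Bhlhe41 was the one gene of the 8 called between genotypes. Its mean on day 4 was 3.64 ± 0.733 FPKM (SD, n = 3) in Per1-/-, 2.02 ± 0.645 FPKM in WT and 1.31 ± 0.276 FPKM in the libraries labelled Per2-/-, and Per1-/- overlapped neither of the others. On that day Per1-/- did not overlap WT for 14.6% of all genes, nor the libraries labelled Per2-/- for 19.2%. Between Per1-/- and the libraries labelled Per2-/- 0 of 7 were called on day 0, 0 of 7 on day 2 and 1 of 7 on day 4, where 0.0201%, 0.0737% and 0.556% of all genes were called. The counts at an unadjusted p under 0.05 were 0, 1 and 1, and voom over the 3 days called 1. Bhlhe41 on day 4 was 2.65-fold higher in Per1-/- (log2 1.40, SE 0.305, limma adjusted p = 0.0324). On day 2 the log2 difference was 0.94 (adjusted p = 0.315), and against WT it was 0.84 on day 4 (adjusted p = 0.612). The call of day 4 was lost when replicate 1 or 3 of Per1-/- was left out (log2 1.31 and 1.32) and when replicate 1, 2 or 3 of the libraries labelled Per2-/- was (log2 1.40, 1.26 and 1.55). It was also lost with the groups compared fitted alone (adjusted p = 0.0622) and with equal sums of FPKM (log2 1.32, adjusted p = 0.105).

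On each day the genotypes ranked alike by the mean of Bhlhe41 and by the mean sum of the macrophage markers. On day 0 Per1-/- came first and WT last, and the libraries of the genotypes overlapped in both. The marker sum on day 4 was 794 to 1232 FPKM in Per1-/-, 436 to 580 FPKM in WT and 320 to 412 FPKM in the libraries labelled Per2-/-. All 14 markers were detected in each group, with none at 0 in all 3 libraries. On day 2 it was 408 to 689, 205 to 295 and 117 to 200 FPKM in the same order. Replicate 3 of Per1-/- on day 0, with the highest Bhlhe41 of all libraries at 4.36 FPKM, had a marker sum of 591 FPKM against 101 and 154 FPKM in replicates 1 and 2. None of the 14 markers was called between Per1-/- and the libraries labelled Per2-/- on day 4, with a median log2 difference of 1.49 and 12 of 14 at an unadjusted p under 0.05. With its own test, the study reported macrophage genes as higher in Per1-/- cells than in both other genotypes. In WT and in the libraries labelled Per2-/- the marker sum of each library of day 4 was above those of day 0, whereas Bhlhe41 was not higher on day 4. The part of macrophages in the Bhlhe41 difference was not tested.

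**Figure D4:**
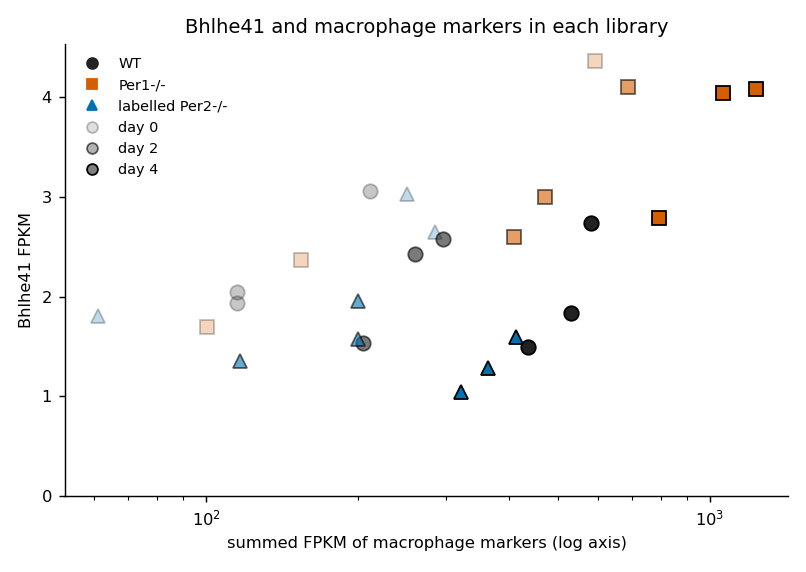
Bhlhe41 FPKM (vertical axis, from 0) against the summed FPKM of 14 macrophage markers (horizontal log axis) in each of the 27 libraries, with symbols for genotype and darker shades for later days. The 3 Per1-/- libraries of day 4 lie at 794 to 1232 FPKM of markers and 2.79 to 4.08 FPKM of Bhlhe41, and the 3 labelled Per2-/- of that day at 320 to 412 FPKM and 1.04 to 1.59 FPKM.

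The core clock genes that act above these outputs gave the setting. Of the 17 listed, 14 were tested, and Npas2, Rorb and Fbxl21 were too low. From day 0 to day 2, 4 of 14 were called in each genotype, where 40.5%, 39.6% and 35.5% of all genes were. Per3 and Btrc rose in all 3 genotypes and Per2 in WT and Per1-/-, whereas Arntl2 fell in WT and in the libraries labelled Per2-/- and Nr1d1 in Per1-/- and in the libraries labelled Per2-/-. The median log2 change of the 14 was 0.11, 0.14 and 0.15 in WT, Per1-/- and the libraries labelled Per2-/-, beside -0.01 over all genes in each. From day 0 to day 4, 4, 4 and 3 of 14 were called, where 43.8%, 43% and 40.3% of all genes were. Between days 2 and 4 limma called none, where 3.21%, 2.44% and 4.06% of all genes were called, with 2, 3 and 4 at an unadjusted p under 0.05. With equal sums of FPKM the falls of Arntl2 and Nr1d1 to day 2 were no longer called, and Cry1 was called higher on day 2 in all 3 genotypes. Per2 in the libraries labelled Per2-/- was then also called higher on day 2 (log2 0.85, limma adjusted p = 4.25e-05), and Btrc on day 4 in each genotype. On the main scale that rise of Per2 was log2 0.53 (adjusted p = 0.0013), under the fold threshold.

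Nr1d1, which encodes REV-ERBα, a repressor at the elements through which RORA activates, was at 11.5, 12.0 and 7.57 FPKM in WT on day 0 and at 5.44, 4.09 and 6.05 FPKM on day 4 (log2 -0.97, adjusted p = 0.00122). With equal sums of FPKM this fall was not called (log2 -0.58, adjusted p = 0.0634), and of the 5 calls of Nr1d1 from day 0 only that of the libraries labelled Per2-/- on day 4 held. Arntl, the target of both receptors, was called in no comparison.

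Per3, a clock-controlled gene itself, was called higher on day 2 than on day 0 in each genotype, as were Dbp and Tef. Of all genes 20.8%, 20.8% and 18.7% were called higher there. Between days 2 and 4 the mean of Per3 rose in each genotype and that of Dbp fell, with no step called. Per3 was at 0.859, 1.13 and 0.975 FPKM in WT on day 0, at 1.79, 1.95 and 2.28 FPKM on day 2 and at 2.40, 2.59 and 2.55 FPKM on day 4. In Per1-/- it was at 1.94, 0.837 and 1.92 FPKM, then at 3.97, 2.45 and 2.55 FPKM and then at 5.14, 3.56 and 3.79 FPKM. Replicate 2 of Per1-/- on day 0, the low library for Dbp and Rora, was the low one for Per3 as well, and without it the log2 rise of Per3 to day 2 in Per1-/- was 0.57, under the fold threshold. The change from day 0 to day 4 was log2 1.27 in WT, 1.42 in Per1-/- and 1.34 in the libraries labelled Per2-/- (limma adjusted p = 0.000135, 3.98e-05 and 8.46e-05). Between genotypes, Per2 in the libraries labelled Per2-/- against WT on days 0 and 2 was the one core clock gene called.

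**Figure D5:**
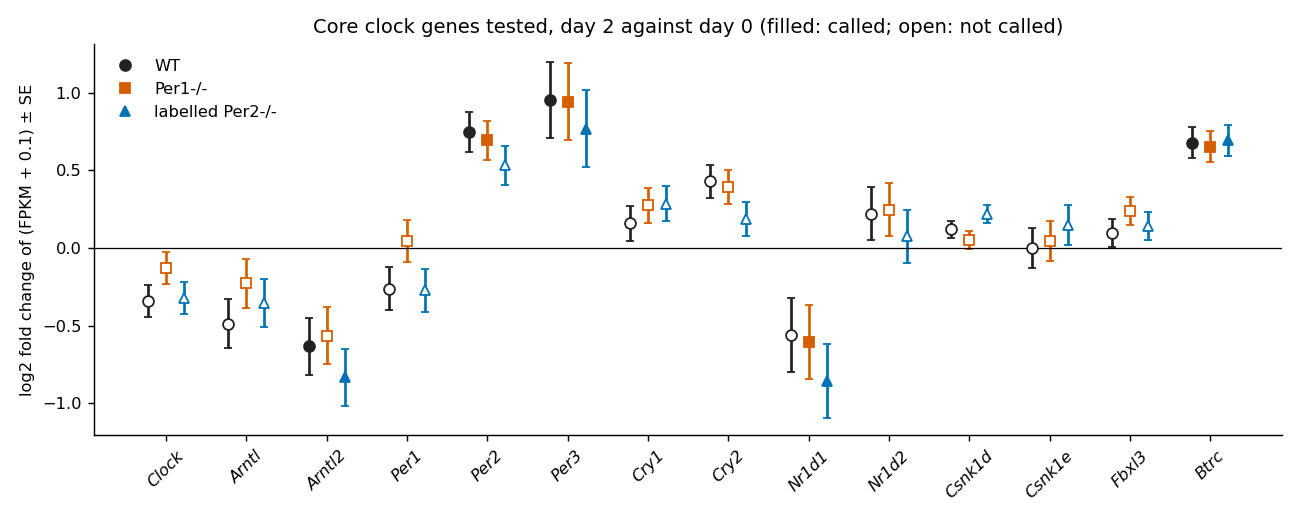
Log2 fold change of (FPKM + 0.1) from day 0 to day 2 for the 14 core clock genes tested, with 1 symbol and its SE for each genotype, filled where called. The genes lie between -0.85 (Nr1d1 in the libraries labelled Per2-/-) and 0.95 (Per3 in WT).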

How the data were processed

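Poly(A) RNA of the 27 cultures was sequenced as nondirectional paired-end libraries. The authors aligned reads to GRCm38 (Ensembl annotation) with HISAT2 2.0.5, counted them with featureCounts 1.5.0-p3 and deposited FPKM for each gene and library, with gene length. The deposited FPKM were found to have equal median-ratio size factors (1.005 in each library), so the total they are scaled to was 0.865 to 0.925 of the recovered fragments on day 0 and 1.03 to 1.10 on days 2 and 4. Whole fragments were recovered from FPKM and length (100% of values whole within 0.001).

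Genes under a mean of 0.5 FPKM over all libraries were left out, and log2(FPKM + 0.1) of the remaining 14932 was fitted with limma 3.58.1 in R 4.3.3, with 9 groups, a mean-variance trend and Benjamini-Hochberg adjustment over all genes in each of 22 comparisons. Calls needed an adjusted p no higher than 0.05 and a log2 fold change of 0.58 or more in size. The fit was tested on simulated data. The labels call the replicates biological without saying which dishes or embryos they came from, and p-values measure the spread between these samples. Deviations of same-numbered libraries from their group means correlated at over 0.1 in all 3 pairs between days 0 and 2 (0.150 to 0.294) and days 2 and 4 (0.140 to 0.284) of Per1-/- and days 2 and 4 of WT (0.127 to 0.196), so the numbers can be read as pairs there. The main fit, which gave the p-values unless another setting is named, took no numbers as pairs. A replicate block was run only as an alternative. Alternatives were pseudocounts of 1 and 0.01, a filter of 1 FPKM or none, a replicate block, the groups compared alone, equal sums of FPKM, recomputed size factors, scaling to recovered fragment totals (added after seeing the data), voom weights, no minimum fold change, and leaving out each library. The genes named were the 8 members, Per1, Per2, core clock genes called in a comparison, and the 3 genes closest in course to each member. Some items that this rule names are not reported here, and core clock counts leave them out. Members and lists were chosen with earlier results of these data known. Promoter windows came from RefSeq (GRCm38.p6). Figures were drawn with matplotlib 3.10.9.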

Additional observations from a re-analysis of the deposited data

How the results depend on the processing

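Over the 3 genotypes 16 calls were made from day 0 to day 2 and 16 from day 0 to day 4. Under 11 alternative settings, 1 of them (scaling to recovered fragment totals) added after the data were seen, these counts were 14 to 16 and 13 to 16, and with 1 library left out they were 15 to 17 and 14 to 17. No call changed sign, and the calls of Tef, Rora, Nfil3 and Bhlhe40 held throughout. The 1 call between Per1-/- and the libraries labelled Per2-/- went to 0 with the groups compared fitted alone and with equal sums of FPKM, and was 0 to 1 with 1 library left out. A pseudocount of 1 FPKM left log2 0.55, 0.48 and 0.55 for Dbp (labelled Per2-/- to day 2, WT and Per1-/- to day 4), under the fold threshold, and fitting the groups alone lost Dbp in Per1-/- on both days (adjusted p = 0.157 and 0.209). Counts over all genes moved by over 1.5 times: from 479, 364 and 606 between days 2 and 4 to 395 to 829, 298 to 730 and 465 to 1051, from 5912 and 5300 in Per1-/- and the label Per2-/- from day 0 to day 2 to as many as 8967 and 8298, and between the mutants from 3, 11 and 83 on days 0, 2 and 4 to 0 to 9, 0 to 40 and 19 to 266. Against WT, 2, 1 and 4 genes in Per1-/- became 1 to 5, 0 to 3 and 0 to 13, 1, 4 and 1 in the label Per2-/- became 0 to 7, 0 to 7 and 0 to 23, and the interaction contrasts gave 0 to 14. With 1 library left out the counts between days 2 and 4 were 169 to 353, 125 to 353 and 188 to 717. Scaled to recovered fragment totals, the log2 change of the median gene from day 0 to day 2 was 0.28, 0.27 and 0.25, the share of calls that were higher was 74.6%, 75.5% and 74.2% to day 2 and 72.4%, 71.4% and 71.6% to day 4, Ciart lost its calls (log2 -0.39 and -0.34), and in the label Per2-/- on day 4 Bhlhe41 lost its call (log2 -0.63, adjusted p = 0.0789) and Dbp gained one (log2 0.74, adjusted p = 0.0149).

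Same-numbered libraries of a genotype on different days had deviations from the group means that correlated at -0.017 to 0.294 (27 pairs, 14 over 0.1). Every pair exceeded 0.1 in only 3 comparisons, although 48 of 54 best matches on another day had the library's own number. The main fit took the numbers as pairs in no comparison. With a replicate block the members had 16, 0 and 16 calls for the 3 day comparisons and 1 between the mutants, as without it. The block raised the counts over all genes between days 2 and 4 to 829, 730 and 1051, called 2 of the 14 macrophage markers between the mutants on day 4, raised the count over all genes for that comparison from 83 to 144, and ended the call of Per2 in the label Per2-/- on day 2 (adjusted p = 0.055). At 20 to 92 fragments a library, counting error limits Hlf and Ciart.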

Other observations

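For each gene called over the days, the 3 tested genes with the most similar course were sought, by the root-mean-square difference of centred log2(FPKM + 0.1) over the 27 libraries, so that a smaller value is a closer course. Tef was followed most closely by Slc36a4, an amino acid transporter (0.138), Ppp3ca, a catalytic subunit of calcineurin (0.140), and Ift122, of intraflagellar transport (0.143), where the median gene was at 0.608. Rora was followed by Rmnd5a (0.157), the histone demethylase Kdm7a (0.167) and the adenylyl cyclase Adcy9 (0.174), with the median gene at 0.792. Dbp was followed less closely, by Pygl, the liver glycogen phosphorylase (0.202), Thnsl2 (0.220) and Vwa5a (0.224), with the median gene at 0.601.

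Among the genes that fell, Nfil3 ran closest to Swap70 (0.188), Fads3 (0.195) and Tspan4 (0.228), with the median gene at 0.802. Bhlhe40 ran close to the actin-binding Tagln2 (0.185) and the calcium-binding S100a6 (0.257), with the median gene at 1.32. Ciart ran closest to the isoleucyl-tRNA synthetase Iars (0.212), Ttc37 (0.213) and Elp6 (0.215), with the median gene at 0.490. Bhlhe41 had the loosest neighbours, Ctsc, which encodes cathepsin C (0.311), Abcc3 (0.321) and Gcnt1 (0.339), with the median gene at 0.638.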
